A study of Mus musculus with 6 samples.

Results

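Rab proteins are small GTPases that sit on the membranes of the cell and set which vesicle moves where. The Rab genes were taken from the heart expression table as the protein-coding rows named Rab, a number and at most 1 lower-case letter. This gave 58 genes among 54532 rows, of which 22046 are protein-coding. Polyadenylated RNA was sequenced from the hearts of 3 Mc4r KO mice and 3 WT littermates, with 1 library per mouse. The Mc4r KO mice were homozygous for the deletion, and both groups were 12 weeks old, on the C57B/6/N background and fed standard chow. The study's text describes the mice as male. The sample labels name the tissue as heart in one field and as muscle in another, while the paper's text speaks of left ventricle. Levels are in FPKM, a fragment count set relative to gene length and to 1 factor per library. Genes can thus be compared with each other. The factor of each library was not its read total alone. Over genes with values above 0 in every library, the median ratio to each gene's geometric mean was 1.006 in all 6 libraries.

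A Rab protein is switched on when it binds GTP and switched off when it hydrolyses it to GDP. Guanine nucleotide exchange factors (GEFs) load the GTP, GTPase-activating proteins (GAPs) speed its hydrolysis, and effectors bind the GTP form to tether, move or fuse the vesicle. Rab escort proteins and a geranylgeranyl transferase attach the lipid anchor, and the GDP dissociation inhibitors carry the inactive form through the cytosol. In muscle, Rab proteins are known for the traffic of the glucose transporter GLUT4, of ion channels and adrenergic receptors, and of lysosomes and autophagosomes.

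The libraries held 14767929 to 16047003 reads on genes in WT and 14691076 to 15649074 in Mc4r KO. Mc4r itself had 2 reads in WT replicate 3 and 0 in the other 5 libraries, too few to check the genotype. Cardiomyocyte markers (Myh6, Tnnt2, Actc1, Pln, Ryr2 and Myl2) summed to 10664 to 11238 FPKM in WT and 13252 to 14661 in Mc4r KO. Fibroblast markers (Col1a1, Pdgfra, Dcn and Tcf21) summed to 141 to 148 in WT and 106 to 116 in Mc4r KO, mostly from Dcn. Within both lists members went both ways. Log2 fold changes were 0.54 for Actc1 but -0.33 for Pln, and -0.53 for Dcn but 0.44 for Col1a1. Mitochondrial transcripts took 47.1% to 59.3% of the summed FPKM in WT and 43.0% to 46.6% in Mc4r KO. WT replicate 3 stood apart, with 747 FPKM of the 4 atrial markers against as little as 28.6 in another WT library, and correlated best with Mc4r KO replicate 1 (Pearson's r = 0.962 over genes, as a description). None of the genes of the 15 marker lists was called, and the part of these differences in the Rab values was not tested. In RNA from a whole tissue, fewer cells of a type and less RNA per cell cannot be told apart.

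Rab genes differed widely in level. Of the 58 genes, 18 had a mean of at least 10 FPKM over the 6 libraries, 18 had 1 to 10, 13 had 0.1 to 1, and 9 were under 0.1. The 5 highest genes, Rab7, Rab1b, Rab2a, Rab12 and Rab10, held 48.6% of the summed Rab FPKM, and the 20 highest held 90.5%. By the role fixed for each gene, those of the endoplasmic reticulum and Golgi held 36.1%, late endosome and lysosome 23.8%, early endosome 14.4%, recycling 10.6%, and exocytosis and plasma membrane 10.1%. The genes of cilium, of lysosome-related organelles and the remaining Rab40 and Rab42 genes each held between 0.941% and 2.98%. The 9 genes under 0.1 FPKM were Rab39, Rab33a, Rab9b, Rab25, Rab44, Rab39b, Rab38, Rab26 and Rab3c, and they were not tested. Rab3c had 0 reads in all 6 libraries, where a count of 0 allows up to 3 reads in each. Rab33a had 7 reads in WT replicate 3 and 0 in the other 5 libraries.

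**Figure D1:**
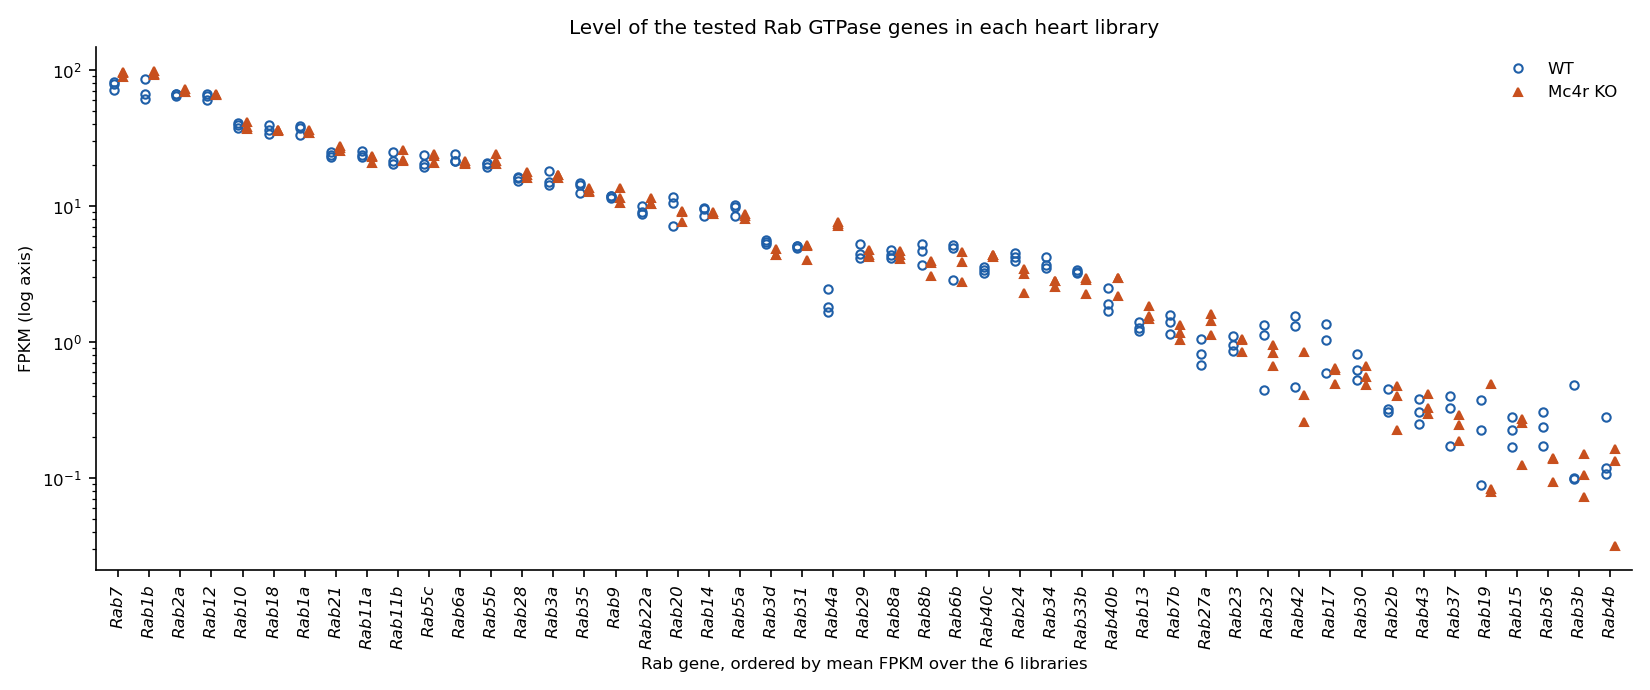
Level of the 49 tested Rab genes in each library, in FPKM on a log axis, ordered by their mean over the 6 libraries. Open circles are the 3 WT and filled triangles the 3 Mc4r KO libraries; levels run from about 100 FPKM (Rab7, Rab1b) down to single reads (Rab4b), and Rab4a is the gene whose Mc4r KO values of 7.10 to 7.59 stand well above its WT values of 1.66 to 2.47.

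The comparison of Mc4r KO with WT asks how loss of the melanocortin-4 receptor changes gene expression in the heart. Of the 49 Rab genes tested, Rab4a rose in Mc4r KO and the other 48 did not pass the test. A gene was called where limma on log2(FPKM + 0.1), over 18035 genes, gave an adjusted p below 0.05 together with a log2 fold change beyond 0.75 in either direction. By that rule 0.46% of all genes tested were called, 83 genes, and 0.316% were called as higher, so that 1 call among 49 genes describes Rab4a and not the family. In all, 8 of the 49 Rab genes (16.3%) had an unadjusted p under 0.05, against 20.9% of all genes tested. The median log2 fold change of the 49 genes was -0.05, beside -0.01 over all genes, and 43 of the 49 lay within 0.5 of 0.

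The 3 Mc4r KO values lay fully above or below the 3 WT values for 14 Rab genes, or 28.6%, beside 26.4% of all genes tested. Of these, 9 were higher and 5 lower in Mc4r KO. These directions depended on the scaling. The mitochondrial share was lower in Mc4r KO, and its part in this was not tested. When each library was scaled to its FPKM total without mitochondrial genes, the all-gene median moved by -0.18. Under that scaling 16 of the 49 Rab genes (32.7%) did not overlap, 3 higher and 13 lower. The share over all genes was not counted under that scaling, so these counts are no result about the Rab genes. The summed FPKM of all Rab genes was 678.5 ± 8.51 in WT and 725.9 ± 14.2 in Mc4r KO (SD, n = 3). As a share of the FPKM outside the mitochondrial chromosome, the same sum was 0.302% ± 0.0174 in WT and 0.282% ± 0.00502 in Mc4r KO, so that the direction turned and the groups overlapped.

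**Figure D2:**
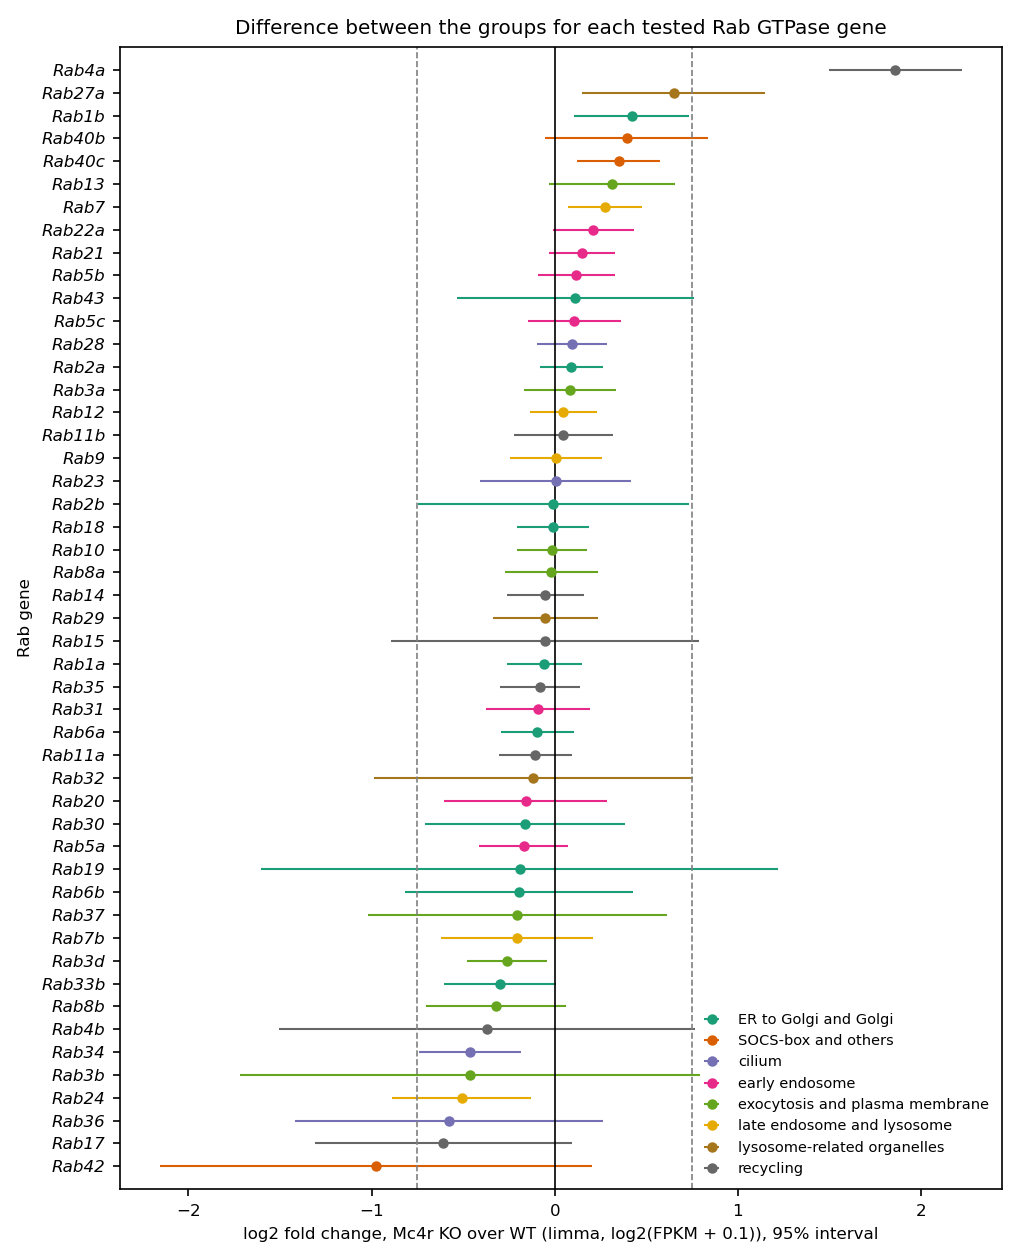
Log2 fold change of Mc4r KO over WT for the 49 tested Rab genes, as points with 95% intervals from limma, coloured by role. Dashed lines mark 0.75 in each direction; Rab4a at 1.86 is the single interval wholly beyond a line, and the widest intervals belong to genes of few reads such as Rab42, Rab19 and Rab3b.

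Rab4a (ENSMUSG00000019478; chr8:123805985-123835287, plus strand, GRCm38) encodes a Rab of the early and recycling endosome that returns receptors and GLUT4 quickly to the cell surface. It had 1.82, 1.66 and 2.47 FPKM in WT replicates 1, 2 and 3, and 7.59, 7.42 and 7.10 FPKM in Mc4r KO replicates 1, 2 and 3. The groups did not overlap, and the lowest Mc4r KO library was well above WT replicate 3, the highest of its group. The means were 1.98 ± 0.430 and 7.37 ± 0.251 FPKM (SD, n = 3), a ratio of 3.71. On the log2(FPKM + 0.1) scale Rab4a rose by 1.86 with an SE of 0.15 and a 95% interval of 1.50 to 2.22 (limma, adjusted p = 0.00974). By unadjusted p it ranked 8 among the 18035 genes tested. Among the Rab genes its rank by mean FPKM went from 33 in WT to 22 in Mc4r KO. The values rest on 45, 42 and 74 reads in WT and 207, 198 and 200 reads in Mc4r KO.

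The size of the Rab4a difference was kept under each alternative, from 1.48 to 2.02, while its call was not. The adjusted p (limma) was above 0.05 without WT replicate 1 (0.0750) and without Mc4r KO replicate 1, 2 or 3 (0.0607, 0.0638 and 0.0515), and with the mitochondrial share as a covariate (0.122, log2 fold change 1.48). Without WT replicate 3, the library that stood apart, the log2 fold change was 2.02 with an adjusted p of 0.00253. Over all 18 alternatives the adjusted p ran from 0.0021 to 0.122.

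Rab4a and Rab4b are close paralogs, so reads could in principle be confused between them. For each gene 1 coding sequence was taken, by the annotation's principal (APPRIS) tag first and then by length. Those of Rab4a and Rab4b are identical at 73.2% of 654 aligned columns, with no identical run longer than 23 bases. No word of 50 bases in the Rab4a transcripts was found in a transcript of another gene, and no other gene overlapped its exons. The pair is shown over 90 coding bases that begin with the codons of the P-loop, the part of the protein that binds the phosphates of the nucleotide. Capitals mark the 22 bases at which the pair differs. The bases are written 5′ to 3′ on the coding strand from the GENCODE M21 annotation of GRCm38. Those of Rab4a are coding bases 58 to 147, from exon 2 (chr8:123823840-123823894) and exon 3 (chr8:123827324-123827358) on the plus strand. Those of Rab4b are coding bases 43 to 132, from exon 2 (chr7:27176158-27176212) and exon 3 (chr7:27175859-27175893) on the minus strand.
Rab4a: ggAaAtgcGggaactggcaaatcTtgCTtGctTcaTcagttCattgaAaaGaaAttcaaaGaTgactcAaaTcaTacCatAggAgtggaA
Rab4b: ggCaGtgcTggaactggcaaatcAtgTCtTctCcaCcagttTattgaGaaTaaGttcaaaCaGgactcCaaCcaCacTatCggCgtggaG
The differing bases are spread over the whole stretch. Rab4b was barely detected, at 0.170 ± 0.0978 FPKM in WT and 0.110 ± 0.0691 in Mc4r KO, from 1 to 8 reads per library. Its log2 fold change was -0.37 with an SE of 0.48, and 65.0% of its exonic bases are shared on the same strand with Gm21983 and Mir3101, so its level is uncertain.

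By the rule used here, no protein-coding gene around Rab4a was called with it. Within 1 Mb there were 42 protein-coding genes including Rab4a, 36 of them tested, and Rab4a was the 1 called. In 12 of the 36, Rab4a included, the groups did not overlap, a share near the 26.4% of all genes tested. Ccsap, the nearest centre, had a log2 fold change of 0.01, and Acta1, skeletal muscle actin, 1.43 with overlapping groups (limma, adjusted p = 0.225). Agt, which encodes angiotensinogen, had 0.863, 0.884 and 1.37 FPKM in WT and 2.38, 2.72 and 4.71 in Mc4r KO. Its groups did not overlap, its log2 fold change was 1.53, and it did not pass the test (limma, adjusted p = 0.0663). The paper, which tested the counts with DESeq2, has Agt among its differentially expressed genes and proposes it as a potential drug target.

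**Figure D3:**
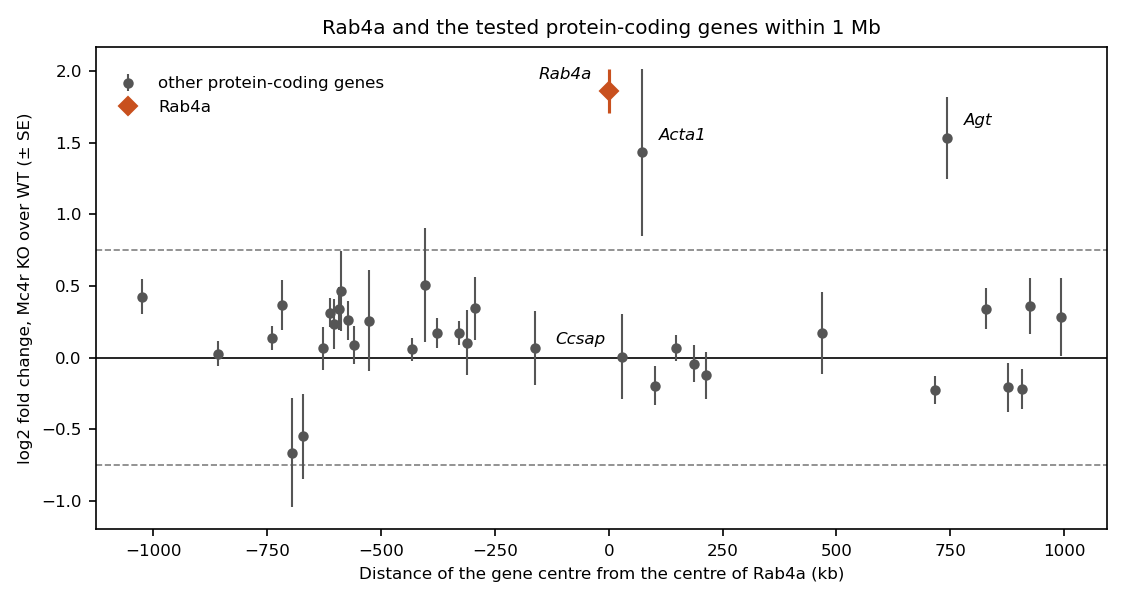
Log2 fold change (points, with SE) of the 36 tested protein-coding genes within 1 Mb of Rab4a, against the distance of each gene's centre from that of Rab4a in kb. Dashed lines mark 0.75 in each direction; Rab4a (1.86), Agt (1.53) and Acta1 (1.43) lie above the upper line, and Ccsap beside Rab4a lies near 0.

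Among the Rabs of the endoplasmic reticulum and Golgi, 11 of 14 were tested and none was called. Rab1b, which with Rab1a drives traffic from the endoplasmic reticulum to the Golgi, had 61.3, 66.9 and 86.8 FPKM in WT and 92.4, 99.0 and 93.3 in Mc4r KO. WT replicate 3 was the closest of the WT libraries to the Mc4r KO range. The log2 fold change of Rab1b was 0.42 with an SE of 0.13 (limma, adjusted p = 0.148). Without WT replicate 3 it was 0.57, with an adjusted p of 0.0135, still under the fold threshold of 0.75, and with scaling outside the mitochondrial chromosome it was 0.23. Its adjusted p ran from 0.0135 to 0.904 over the alternatives. Rab1a had 36.6 ± 2.99 FPKM in WT and 35.1 ± 0.890 in Mc4r KO, a log2 fold change of -0.06 with a 95% interval of -0.26 to 0.15. Whether the 2 paralogs differed from each other in response was not tested.

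The coding sequences of Rab1a and Rab1b share 76.1% of 615 aligned columns, with a longest identical run of 38 bases. Their matching 90 bases from the P-loop are shown for the same reason as those of the Rab4 pair, with the 18 differing bases in capitals. Those of Rab1a are coding bases 52 to 141, from exon 2 (chr11:20215658-20215702) and exon 3 (chr11:20218813-20218857) on the plus strand. Those of Rab1b are coding bases 43 to 132, from exon 2 (chr19:5105178-5105222) and exon 3 (chr19:5104884-5104928) on the minus strand.
Rab1a: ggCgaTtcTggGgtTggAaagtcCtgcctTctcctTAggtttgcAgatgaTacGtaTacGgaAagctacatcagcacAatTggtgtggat
Rab1b: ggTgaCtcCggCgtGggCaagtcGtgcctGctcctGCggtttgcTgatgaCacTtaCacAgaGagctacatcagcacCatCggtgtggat
Most of the differing bases stand alone between bases that the pair shares, and neither gene shared a word of 50 bases with another gene's transcripts. Rab2a, which works between the endoplasmic reticulum and Golgi, had 66.5, 64.1 and 66.8 FPKM in WT and 68.7, 72.4 and 69.2 in Mc4r KO. That is a log2 fold change of 0.09 without overlap of the groups, which turned to -0.10 with scaling outside the mitochondrial chromosome and to -0.11 with quantile normalization. Its paralog Rab2b was at 0.361 ± 0.0790 and 0.367 ± 0.129 FPKM, and 64.0% of its exonic bases lie opposite Gm43766 and Tox4. Rab18, a Rab of the endoplasmic reticulum and lipid droplets, had 39.6, 33.7 and 36.5 FPKM in WT and 35.9, 36.4 and 36.5 in Mc4r KO, with the Mc4r KO values inside the WT range and a log2 fold change of -0.01. Rab33b, which acts at the Golgi and in autophagy, had 3.41, 3.29 and 3.25 FPKM in WT and 2.28, 2.85 and 2.96 in Mc4r KO, so each Mc4r KO library was below the WT range. Its log2 fold change was -0.30 (limma, adjusted p = 0.249), and -0.49 with scaling outside the mitochondrial chromosome. Of its exonic bases 18.7% lie opposite Gm38160. Rab6a and Rab6b, of the Golgi, had log2 fold changes of -0.09 and -0.19 with overlapping groups. Of the exonic bases of Rab6a 19.0% lie opposite Mrpl48.

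The late endosomal and lysosomal Rabs held Rab7, the highest Rab by the mean over all 6 libraries, although in Mc4r KO its mean of 93.6 ± 4.74 FPKM was not above that of Rab1b, 94.9 ± 3.58. Rab7, which brings late endosomes and autophagosomes to the lysosome, had 81.5, 78.6 and 72.0 FPKM in WT and 88.4, 94.9 and 97.6 in Mc4r KO. The groups did not overlap, and the log2 fold change was 0.28 with an SE of 0.09 (limma, adjusted p = 0.144). It was 0.08 with scaling outside the mitochondrial chromosome and 0.06 with quantile normalization. Of its 50-base words 12.7% occur in other transcripts, among them its pseudogene Rab7-ps1. Rab24, linked to autophagy, had 3.94, 4.25 and 4.52 FPKM in WT and 3.17, 2.32 and 3.46 in Mc4r KO, a log2 fold change of -0.51 (limma, adjusted p = 0.148). With scaling outside the mitochondrial chromosome the log2 fold change of Rab24 was -0.70. All 3 Mc4r KO libraries were lower, but 62.4% of its exonic bases lie opposite Prelid1, and without strand the reads of such a pair cannot be told apart. Rab12, of lysosomes and recycling, had 64.6, 67.2 and 60.3 FPKM in WT and 65.7, 67.2 and 65.5 in Mc4r KO. The groups overlapped, and the log2 fold change was 0.05, which turned to -0.15 with scaling outside the mitochondrial chromosome. Rab9, which returns cargo from late endosomes to the trans-Golgi, had 11.8 ± 0.199 and 11.9 ± 1.51 FPKM.

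The early endosomal Rabs were all tested, 7 of 7, and none was called. Their log2 fold changes ran from -0.17 to 0.21. Rab5a, Rab5b and Rab5c, which direct fusion of early endosomes, had log2 fold changes of -0.17, 0.12 and 0.11 with overlapping groups. Rab22a had 9.06, 8.76 and 10.1 FPKM in WT and 10.5, 11.5 and 10.4 in Mc4r KO, without overlap, and a log2 fold change of 0.21 (limma, adjusted p = 0.256). Its close relative Rab31 had 5.05 ± 0.106 and 4.77 ± 0.633 FPKM with overlap. Rab21, which moves integrins, had 25.0, 23.0 and 24.0 FPKM in WT and 25.5, 27.5 and 26.8 in Mc4r KO, a log2 fold change of 0.15 (limma, adjusted p = 0.327) that turned to -0.05 with scaling outside the mitochondrial chromosome. Rab20 varied most among the WT libraries, from 7.13 to 11.7 FPKM, and 25.6% of its exonic bases lie opposite E230013L22Rik.

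Apart from Rab4a, the recycling Rabs showed no gene without overlap. Rab11a and Rab11b, of the slower recycling route, had 24.0 ± 1.12 and 22.4 ± 2.46 FPKM in WT and 22.3 ± 1.41 and 23.1 ± 2.43 in Mc4r KO. Their log2 fold changes were -0.11 and 0.05, with 95% intervals of -0.31 to 0.09 and of -0.22 to 0.32. Of the 50-base words of Rab11b 13.6% occur in other transcripts, among them Rab11b-ps2. Rab14, which also takes part in GLUT4 traffic, had 9.20 ± 0.646 and 8.87 ± 0.223 FPKM, and Rab35 13.9 ± 1.18 and 13.1 ± 0.453. Each of these intervals lay inside 0.75 in both directions.

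The Rabs of exocytosis and the plasma membrane included Rab10, another Rab of GLUT4 traffic, with 40.7, 39.8 and 37.4 FPKM in WT and 36.9, 41.4 and 38.4 in Mc4r KO. The groups overlapped. Its log2 fold change was -0.02, with an interval of -0.21 to 0.18. Rab8a had 4.43 ± 0.320 and 4.38 ± 0.318 FPKM, and its paralog Rab8b 4.55 ± 0.765 and 3.61 ± 0.488 with overlap. Rab13, of tight junctions, had 1.20, 1.27 and 1.40 FPKM in WT and 1.57, 1.49 and 1.84 in Mc4r KO, a log2 fold change of 0.31 (limma, adjusted p = 0.279). Rab3d, a Rab of regulated secretion, had 5.61, 5.28 and 5.44 FPKM in WT and 4.81, 4.36 and 4.41 in Mc4r KO, a log2 fold change of -0.26 (limma, adjusted p = 0.182). For both genes every Mc4r KO library lay outside the WT range, and neither passed the test. With scaling outside the mitochondrial chromosome the log2 fold changes were 0.13 for Rab13 and -0.45 for Rab3d. The related Rab3a had 15.8 ± 2.05 and 16.7 ± 0.543 FPKM with overlap.

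Rab27a, which docks secretory lysosomes, melanosomes and exosomes, had the second highest log2 fold change of the tested Rabs. It had 0.676, 0.826 and 1.06 FPKM in WT and 1.43, 1.14 and 1.61 in Mc4r KO, without overlap, from 37 to 100 reads per library. The log2 fold change was 0.65 with an SE of 0.21 (limma, adjusted p = 0.155), and it was 0.80 with an adjusted p of 0.0623 without WT replicate 3, the lowest of a range up to 0.882 over the alternatives. It was 0.16 with the mitochondrial share as a covariate, 0.37 with a pseudocount of 1 and 0.47 with scaling outside the mitochondrial chromosome. Rab32 and Rab29, of the same group, had log2 fold changes of -0.12 and -0.05 with overlap. Of the 4 cilium Rabs, Rab34 had 3.69, 3.50 and 4.26 FPKM in WT and 2.84, 2.82 and 2.56 in Mc4r KO, without overlap. Its log2 fold change was -0.46 with an SE of 0.12 (limma, adjusted p = 0.107), and -0.65 with scaling outside the mitochondrial chromosome. Rab36 was also lower without overlap, at 0.238 ± 0.0660 and 0.125 ± 0.0266 FPKM, from 9 to 32 reads per library. Rab23 and Rab28 had log2 fold changes of 0.00 and 0.09.

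Rab40b and Rab40c carry a SOCS box, through which they join ubiquitin ligases. Rab40c had 3.21, 3.38 and 3.57 FPKM in WT and 4.25, 4.40 and 4.35 in Mc4r KO, with narrow ranges that did not overlap. Its log2 fold change was 0.35 with an SE of 0.10 (limma, adjusted p = 0.121), and 0.16 with scaling outside the mitochondrial chromosome. Rab40b had 2.04 ± 0.424 and 2.70 ± 0.435 FPKM with overlap. The lowest log2 fold change of all tested Rabs was that of Rab42, -0.98 with a 95% interval of -2.15 to 0.20, from only 3 to 17 reads per library.

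For the 36 Rab genes with a mean of at least 1 FPKM the median half-width of the 95% interval was 0.25, and for the 13 below it was 0.84. Apart from Rab4a, 31 of the 35 genes in the first set had an interval wholly inside 0.75 in both directions. In the main test, a difference of the size of the fold threshold was therefore outside the interval for those 31 genes. Intervals under the other scalings were not counted. For the genes under 1 FPKM the median half-width exceeded the threshold.

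The genes that regulate or bind Rab proteins were taken from a list of 142, of which 135 were tested. None was called by limma, on log2 FPKM or with voom on the recovered reads, while 42 (31.1%) had an unadjusted p under 0.05, beside 20.9% of all genes tested and 27.8% of those with a mean of at least 1 FPKM. Of the alternatives 1 called any: without WT replicate 3, Eea1 (-0.77, adjusted p = 0.0115, limma) and Chm (-0.75, adjusted p = 0.0192) passed. These were 2 of the 133 list genes tested in that fit, which called 726 of 17966 genes over all genes. The median log2 fold change was -0.12, with 55 positive and 80 negative values. By role it was -0.23 for the 38 GAPs, -0.01 for the 38 GEFs, -0.16 for the 50 effectors and -0.15 for the 9 genes of prenylation and GDP dissociation. In 61 of the 135 genes (45.2%) the groups did not overlap, 23 higher and 38 lower. That share was 26.4% over all genes tested and 33.4% over those with a mean of at least 1 FPKM.

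The 5 genes of the list with the lowest adjusted p, none of which passed, went in both directions. Appl2, an adaptor that binds Rab5, had 10.2, 9.73 and 8.54 FPKM in WT and 6.13, 5.54 and 6.74 in Mc4r KO, a log2 fold change of -0.62 (limma, adjusted p = 0.0639). Eea1, which tethers early endosomes through Rab5, had 6.11, 5.73 and 4.70 FPKM in WT and 3.45, 3.37 and 3.46 in Mc4r KO, a log2 fold change of -0.66 (limma, adjusted p = 0.0650). In both genes every Mc4r KO library was below the WT range. In the other direction, Als2cl, on the list of GEFs, had 3.51, 3.98 and 2.97 FPKM in WT and 5.62, 5.21 and 6.08 in Mc4r KO, a log2 fold change of 0.68 (limma, adjusted p = 0.0718). Rab3ip (Rabin8), a GEF for Rab8, had 17.9 ± 1.06 and 23.7 ± 1.01 FPKM, a log2 fold change of 0.40 (limma, adjusted p = 0.0763). Ehbp1l1, a Rab8 effector, had 31.1 ± 2.75 and 44.4 ± 2.70 FPKM and 0.51 (limma, adjusted p = 0.0663). Tbc1d4 (AS160), the GAP that insulin signalling turns off to release GLUT4 vesicles, had 13.8 ± 0.963 and 10.9 ± 1.58 FPKM, a log2 fold change of -0.34 (limma, adjusted p = 0.187). Its relative Tbc1d1 had 3.14, 3.23 and 5.04 FPKM in WT, the highest in replicate 3, and 2.98, 2.72 and 2.48 in Mc4r KO. The log2 fold change of Tbc1d1 was -0.43 (limma, adjusted p = 0.259). The escort proteins Chm and Chml had log2 fold changes of -0.58 and -0.51, and Gdi2, a GDP dissociation inhibitor, -0.26. On the same list Icmt, which methylates prenylated proteins, had 0.37 without overlap (limma, adjusted p = 0.172), Rabac1 0.27 and the transferase subunit Rabggtb 0.10. Of the proteins that bind Rab4, Gripap1 had 3.74 ± 0.33 and 4.93 ± 0.51 FPKM without overlap, a log2 fold change of 0.39 (limma, adjusted p = 0.142). Rabep1 and Rufy1 had log2 fold changes of -0.20 and -0.06 with overlap. Rbsn, also on the effector list, had 0.25 without overlap (limma, adjusted p = 0.241).

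**Figure D4:**
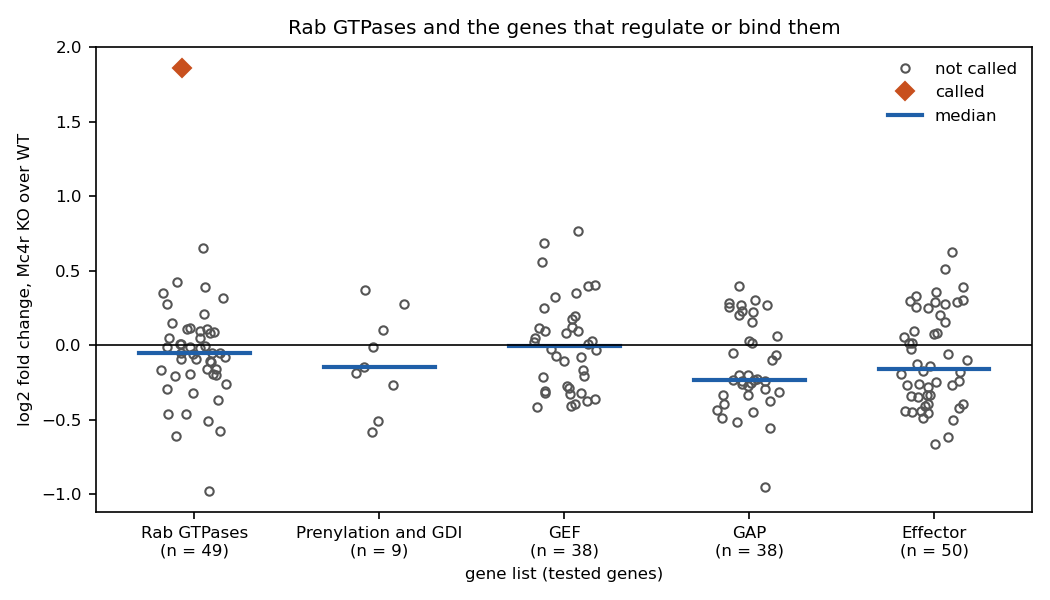
Log2 fold change of Mc4r KO over WT for the tested Rab genes (49) and for the genes of prenylation and GDP dissociation (9), GEFs (38), GAPs (38) and effectors (50). Each circle is a gene, the diamond is the called gene Rab4a, and blue bars are medians, from -0.23 for the GAPs to -0.01 for the GEFs.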

How the data were processed

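The Rab genes, their roles, the regulator and effector list and the marker lists were chosen with earlier results of these data known. A further gene of this naming is not reported here. The authors filtered the reads, aligned pairs with HISAT2 2.0.5 to mm10 (per the labels), counted them on genes with featureCounts, tested them with DESeq2 and deposited FPKM per gene and library with gene length and position. The authors' use of strand is not given in the sources used here. Within each library, FPKM multiplied by gene length moved in equal steps, so that whole reads (within 0.01) were recovered for 100% of the values above 0; 3 reads on 1 kb correspond to 0.176 to 0.213 FPKM, for counting error only. All value columns were matched to a library.

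Because FPKM are not counts, the main test was limma 3.58.1 (R 4.3.3, empirical Bayes with trend, no covariate, all 6 libraries) on log2(FPKM + 0.1) for genes averaging 0.1 FPKM or more, with two-sided p-values and Benjamini-Hochberg adjustment over 18035 genes. Fold changes of genes with few reads are understated on this scale. Values are given per library for Rab genes that were called, for the 12 largest absolute log2 fold changes among those without overlap at a mean of at least 1 FPKM, and for the 6 highest means; close paralogs are given in brief. Of the regulators, those with the lowest adjusted p and those of GLUT4 traffic, Rab4 and the GDP cycle were named after their values were seen, as were Agt, Acta1 and Ccsap. With 3 mice against 3 an exact permutation test cannot give a p below 0.1. The 18 alternatives were other pseudocounts, filters, scalings and weights, covariates, a replicate block, limma voom on the recovered reads, and each library left out. The script was tested on simulated data. Overlapping exons and shared words of 50 bases were searched in GENCODE M21, where all 58 genes were found and 56 had the same coordinates, all but Rab1b and Rab18. Coding sequences were aligned with Biopython 1.88, and figures drawn with matplotlib.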

Additional observations from a re-analysis of the deposited data

How the results depend on the processing

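The number of Rab genes called was 1 under 12 of the 18 alternatives and 0 under the other 6: with the mitochondrial share as a covariate, with the replicate number as a block, and in 4 of the fits that left out 1 library, where it ranged from 0 to 1. With the replicate block Rab4a had a log2 fold change of 1.86 and an adjusted p of 0.0712 (limma), and 11 genes were called over all genes. The numbers were not taken to pair mice, since same-numbered libraries had correlated deviations of -0.141, 0.00735 and -0.0818 over 11297 genes.

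Over all genes the number called was 83. It was 44 with a pseudocount of 1, 22 with no filter, 147 at a mean FPKM of at least 1, 204 over protein-coding genes, 49 with quantile normalization, 41 with scaling outside the mitochondrial chromosome, 21 without trend, 435 with array weights, 2 with the mitochondrial covariate and 317 with voom. Leaving out 1 library gave 7 to 726, the highest without WT replicate 3. Regulators and effectors called ranged from 0 to 2 when 1 library was left out, and were 0 under each other alternative. The median log2 fold change of the Rab genes was -0.24 with scaling outside the mitochondrial chromosome, where that of all genes was -0.19, and 8 instead of 19 of the 49 Rab genes were positive.

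Among the 16 Rab genes given by library, signs turned for 5, none of them called. With scaling outside the mitochondrial chromosome the log2 fold changes were -0.046 for Rab21, -0.10 for Rab2a and -0.15 for Rab12, and with quantile normalization -0.11 for Rab2a and -0.14 for Rab12. Rab10 was 0.10 with the mitochondrial covariate and ran from -0.062 to 0.020 when 1 library was left out. Rab18 was 0.017 with array weights, 0.018 with the mitochondrial covariate and -0.068 to 0.048 when 1 library was left out. The causes were not tested. Intervals were wider for the 13 tested genes under 1 FPKM (median half-width 0.84), where depth and variation between mice were not separated.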
